A study of Mus musculus with 3 samples.

Results

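The genes described here are those that place, read and remove acetyl groups on histone tails, together with subunits of the complexes that carry them. Members were the genes whose single symbol in the platform annotation belongs to the Hdac, Sirt, Kat, Brpf, Ing, Sin3, Rcor or Sap families, to the bromodomain genes Brd1, Brd2, Brd3, Brd8 and Brdt, or is Crebbp, Ep300, Trrap, Meaf6, Taf5l or Taf6l. The choice rests on names and not on measured values. It gave 52 genes, read by 55 probe sets, of 19057 genes in all.

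The samples were 3 biological repeats of R1, a line of mouse embryonic stem (ES) cells from strain 129, with no second condition. Total RNA was read on Affymetrix Mouse Gene 1.0 ST arrays, and the deposited probe set intensities were placed on the log2 scale. All repeats come from the same line, and the labels do not describe the culture, the feeder cells or the medium. The values therefore answer which of these genes gave signal in R1 cells and how evenly they did so between repeats.

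Acetylation of lysines in histone tails loosens chromatin and is common at active promoters and enhancers. Acetyltransferases such as p300, CBP and the Kat enzymes write the mark, bromodomain proteins bind it, and zinc-dependent histone deacetylases and NAD-dependent sirtuins remove it. Most of these enzymes work inside large complexes: Sin3, NuRD and CoREST hold Hdac1 and Hdac2, the NCoR complex holds Hdac3, and SAGA, Tip60 and the MOZ and HBO1 complexes hold acetyltransferases. In mouse ES cells, Tip60 complex subunits are known to be needed for normal self-renewal, and the Hdac1 and Hdac2 pair for proliferation.

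Background was set on each array by 1186 genes of smell and pheromone receptors (olfactory and vomeronasal), and a gene above their 95th percentile was called above background. This level was 4.72, 4.60 and 4.61 log2 units in repeats 1, 2 and 3. A higher cutoff came from 136 genes of other families with no known role in ES cells (taste receptors, defensins, hair keratin-associated proteins and crystallins), at 6.21, 6.26 and 6.25. Signal between these levels is close to that of genes taken to be silent and was not shown to be expression, and a gene below a cutoff was not shown to be silent. Probes differ between genes, so levels of different genes were not ranked. In a culture, fewer cells of a type and less RNA per cell cannot be told apart.

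The arrays carried the ES cell label: all 11 measured ES cell markers were above background on all 3 arrays, with Pou5f1 at 11.63, 11.84 and 11.83 and Nanog at 10.89, 11.24 and 10.88 in repeats 1, 2 and 3. Of 5 blood markers only the T cell gene Cd3e was above background, at 5.58, 5.29 and 5.64, and the leukocyte marker Ptprc read 3.68, 3.74 and 3.69. Of 7 primitive endoderm markers 3 were above background on all 3 arrays. These were Gata4 (5.93, 6.11 and 6.13), Gata6 (5.79, 6.12 and 5.90) and Sox7 (4.97, 5.12 and 5.11), which exceeded the higher cutoff on no array. Of 12 fibroblast markers 10 were above background on all 3 arrays, and the summed intensity of all 12 was 1695, 2618 and 1772. Repeat 2 thus had the highest fibroblast marker sum, with Acta2 at an intensity of 190, 553 and 270 in repeats 1, 2 and 3. Lum, Dcn, S100a4 and Pdgfra were not highest in that repeat. The high sum was not particular to fibroblast markers. Repeat 2 also had the highest ES cell sum (22803, against 21428 and 21145) and primitive endoderm sum (242, against 222 and 238), but the lowest blood sum.

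Nearly all of the histone acetylation genes gave signal. In all, 51 of 52 (98.1%) were above background on all 3 arrays, against 71.4% of 17871 genes outside the receptor families, and the remaining gene, Hdac9, was above it on none. At the 99th percentile of the receptor genes 49 of 52 remained, against 54.8% of genes, and at the higher cutoff from other families 42 of 52, against 42.4%. All 9 acetyltransferases among Crebbp, Ep300, Kat2a, Kat2b and Kat5 to Kat8, and all 11 subunits of their complexes, passed the higher cutoff on all 3 arrays. The sirtuins and the class IIa, IIb and IV deacetylases held most of the genes that did not.

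**Figure D1:**
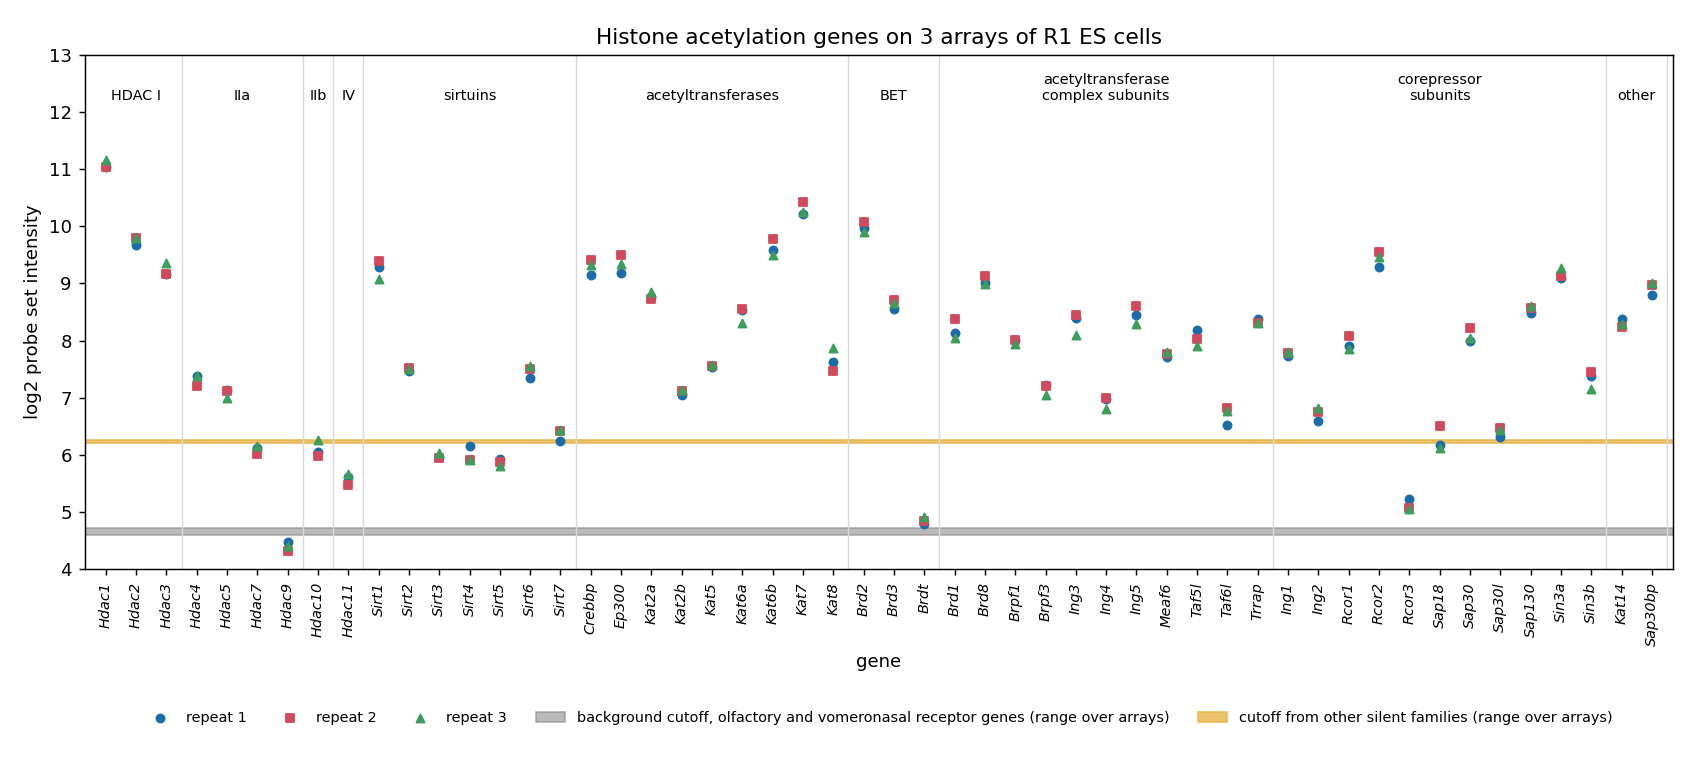
Log2 probe set intensity (vertical axis) of 52 histone acetylation genes, grouped by role, with 1 point for each of 3 repeats. The lower band spans the background cutoffs of the 3 arrays (4.60 to 4.72) and the upper band those from other silent families (6.21 to 6.26); Hdac9 lies below both, and Brdt and Rcor3 lie between them close to the lower one.

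Promoter sequence was examined for the genes at the edge of detection. The 250 bases before each RefSeq start site (assembly GRCm38.p6) were searched for the dinucleotide CG, which reads the same on both strands, and where a gene had several start sites the window with the most CG was taken. Of the 52 genes 46 had a promoter in the table. Windows are shown for Hdac9 (chr12:34528890-34529139, minus strand), the gene below background, for Brdt (chr5:107330944-107331193, plus strand) and Rcor3 (chr1:192138041-192138290, minus strand), which passed background but not the 99th percentile of the receptor genes, and for Kat2b (chr17:53566721-53566970, plus strand), which has few CG but gave signal. They run 5′ to 3′ in the direction of the gene, with each CG in capitals.
Hdac9: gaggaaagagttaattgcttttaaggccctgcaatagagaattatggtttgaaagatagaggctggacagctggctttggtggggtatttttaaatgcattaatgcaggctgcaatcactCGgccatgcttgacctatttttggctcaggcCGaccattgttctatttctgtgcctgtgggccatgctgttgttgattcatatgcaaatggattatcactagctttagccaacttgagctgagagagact
Brdt: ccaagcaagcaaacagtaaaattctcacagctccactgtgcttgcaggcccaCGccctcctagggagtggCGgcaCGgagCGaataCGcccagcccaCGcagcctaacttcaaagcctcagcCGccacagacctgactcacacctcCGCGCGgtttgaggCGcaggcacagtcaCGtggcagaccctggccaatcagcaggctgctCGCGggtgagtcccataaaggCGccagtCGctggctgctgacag
Rcor3: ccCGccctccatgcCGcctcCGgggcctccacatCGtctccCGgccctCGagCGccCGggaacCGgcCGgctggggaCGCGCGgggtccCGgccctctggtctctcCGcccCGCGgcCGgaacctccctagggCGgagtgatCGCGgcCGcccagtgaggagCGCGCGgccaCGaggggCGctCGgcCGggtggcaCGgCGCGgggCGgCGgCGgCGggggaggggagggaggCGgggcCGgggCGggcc
Kat2b: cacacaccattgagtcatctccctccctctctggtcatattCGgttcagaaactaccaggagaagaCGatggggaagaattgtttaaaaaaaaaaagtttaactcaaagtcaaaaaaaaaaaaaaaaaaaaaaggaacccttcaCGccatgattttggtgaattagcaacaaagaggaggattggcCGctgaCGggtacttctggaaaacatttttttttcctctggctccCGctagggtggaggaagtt

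The Hdac9 window held 2 CG, the Brdt window 16, the Rcor3 window 39 and the Kat2b window 6. Among 13893 genes outside the receptor families with a promoter in the table, 97.0% held at least 1 CG, 92.3% held as many as Hdac9, 43.6% as many as Brdt, 2.80% as many as Rcor3 and 74.4% as many as Kat2b. Hdac9, below background, and Kat2b, above it, were both poor in CG. Rcor3, near background, was rich in CG. These genes were picked for display, Kat2b with its CG count and signal known. Whether CG content bears on detection was not tested.

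Over the whole group, 37 of 46 promoters (80.4%) were rich in CG, taken as more than 50% G and C and an observed over expected ratio of CG above 0.6. The share was 52.1% of the genes outside the receptor families, 64.8% of those above background on all 3 arrays and 16.5% of those above it on none. The median window held 22.5 CG in the histone acetylation genes and 17 in all genes above background. Among these 46 genes, 7 of the 9 below the higher cutoff on at least 1 array had such promoters, and 30 of the 37 above it on all 3 arrays did. Promoter CG content is given as a description only, and its part in detection was not tested.

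**Figure D2:**
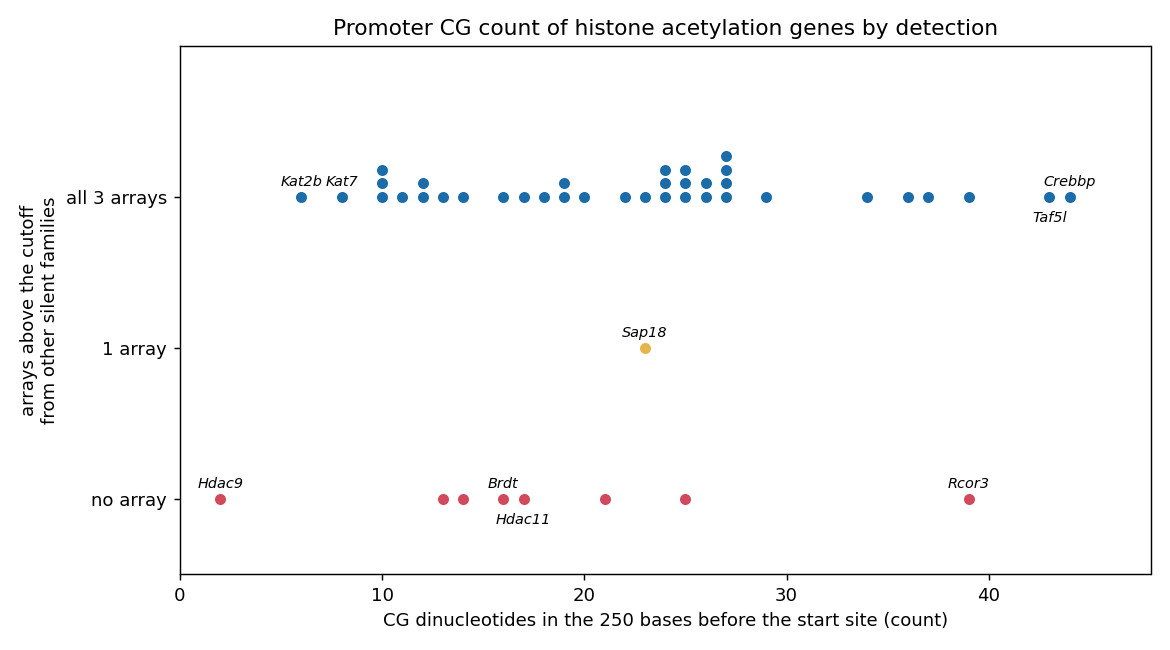
Count of CG dinucleotides in the 250 bases before the start site (horizontal axis) for 46 histone acetylation genes, in rows by the number of arrays on which the gene exceeded the cutoff from other silent families; genes with equal counts are stacked. Genes above the cutoff on all 3 arrays held between 6 and 44 CG and genes above it on no array between 2 and 39, so the rows overlap.

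The 3 class I deacetylases measured here, Hdac1, Hdac2 and Hdac3, gave signal above both cutoffs on every array. They are the catalytic subunits of the Sin3, NuRD, CoREST and NCoR complexes, and Hdac8, of the same class, was not analysed here. Hdac1 read 11.03, 11.03 and 11.16 in repeats 1, 2 and 3, a difference of 0.13 log2 units between the highest and the lowest array. Its close paralog Hdac2 read 9.67, 9.79 and 9.79. Hdac3, the catalytic subunit of the NCoR complex, read 9.16, 9.17 and 9.36. Repeat 3 was the highest array for Hdac1 and Hdac3, and repeat 1 the lowest for all of these 3 genes. Hdac1 was read by 2 probe sets that list the same transcripts, at 11.01, 11.01 and 11.16 and at 11.05, 11.06 and 11.16. Both gave the same order of repeats.

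The class IIa deacetylases, which shuttle between nucleus and cytoplasm and repress partners such as Mef2, were split. Hdac4 read 7.38, 7.20 and 7.38 and Hdac5 read 7.139, 7.115 and 6.996, above both cutoffs on every array. Hdac7 read 6.12, 6.01 and 6.16, above background but below the higher cutoff on all 3 arrays. Hdac9, known mainly from heart, muscle and brain, read 4.48, 4.33 and 4.40 and was below background on all 3 arrays. Its differences between repeats were therefore not interpreted. The 4 paralogs thus differed in detection. The 2 Hdac4 probe sets put repeat 2 lowest, at 7.18, 7.04 and 7.07 and at 7.57, 7.37 and 7.68, but disagreed on the order of repeats 1 and 3.

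Hdac10 and Hdac11, the measured members of classes IIb and IV, sat near the higher cutoff or below it. Hdac10, known as a polyamine deacetylase, read 6.06, 5.98 and 6.26 and exceeded that cutoff in repeat 3 only. Hdac11, known to remove fatty acyl groups from lysines, read 5.61, 5.47 and 5.66 and exceeded it on no array. For both, repeat 2 was the lowest array and repeat 3 the highest.

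All 7 sirtuins were above background, and 4 of them exceeded the higher cutoff on every array. Sirt1, a nuclear deacetylase of histones and p53, read 9.29, 9.39 and 9.08. Sirt2, the mainly cytoplasmic tubulin deacetylase, read 7.48, 7.52 and 7.50 and was among the most even members, with a range of 0.04. Both exceeded the higher cutoff on every array. So did the nuclear Sirt6, a deacetylase of H3 lysines that acts at telomeres, at 7.35, 7.50 and 7.55, and the nucleolar Sirt7 at 6.25, 6.42 and 6.43. In contrast, Sirt3, the main mitochondrial deacetylase, read 5.97, 5.95 and 6.03. Sirt4 read 6.15, 5.91 and 5.92, and Sirt5, which removes succinyl and malonyl groups, read 5.92, 5.88 and 5.81. These 3 mitochondrial sirtuins exceeded the higher cutoff on no array.

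The acetyltransferases gave signal above both cutoffs on every array. Ep300 (p300) read 9.17, 9.50 and 9.33 and its paralog Crebbp (CBP), which shares its enhancer targets, read 9.15, 9.40 and 9.32. Repeat 1 was lowest and repeat 2 highest for both. Kat2a (Gcn5), the acetyltransferase of SAGA, read 8.76, 8.72 and 8.85, and Kat2b (PCAF), its paralog, read 7.06, 7.11 and 7.13. Kat2a, Kat2b and Kat5 each varied by less than 0.25 log2 units. Kat5, the Tip60 enzyme, read 7.54, 7.55 and 7.58 and had the smallest range of the group, 0.04.

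The remaining MYST enzymes differed in how they varied. Kat6a (MOZ) read 8.53, 8.56 and 8.31 and Kat6b (MORF) read 9.58, 9.78 and 9.50. Kat7 (HBO1), which acetylates H3 and H4 at replication origins and gene bodies, read 10.22, 10.42 and 10.25. All of these were highest in repeat 2. Kat8 (MOF), the H4K16 acetyltransferase of the MSL and NSL complexes, went the other way, at 7.62, 7.48 and 7.87, and had the widest range of all members, 0.40 log2 units or 1.32-fold. Kat14, an acetyltransferase subunit of the ATAC complex, read 8.38, 8.25 and 8.29.

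Among the BET readers, which tether transcription elongation factors to acetylated chromatin, Brd2 and Brd3 gave signal above both cutoffs and Brdt did not. Brd2 read 9.98, 10.07 and 9.89, and Brd3 read 8.56, 8.71 and 8.65. Brdt, the testis-specific member needed for spermatogenesis, read 4.79, 4.84 and 4.92, just above background on each array and below the 99th percentile of the receptor genes (5.52, 5.40 and 5.53). The other BET genes and Brdt thus lay on different sides of that level. Of 7 markers of later germ cells 4 were above background, and the summed intensity of all 7 was 391, 537 and 385. That sum was highest in repeat 2. Brdt was highest in repeat 3, with a range of only 0.12 log2 units near background, and a link between them was not tested.

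The subunits that partner the acetyltransferases all exceeded both cutoffs on every array. The scaffold Trrap, shared by SAGA and Tip60 complexes, read 8.38, 8.31 and 8.32, and its 2 probe sets spanned 0.14 and 0.02. The SAGA subunits Taf5l and Taf6l, paralogs of TFIID subunits, read 8.18, 8.03 and 7.91 and 6.53, 6.83 and 6.77, with opposite orders of repeats 1 and 3. Meaf6, common to Tip60, HBO1 and MOZ complexes, read 7.71, 7.77 and 7.81, and the Tip60 bromodomain subunit Brd8 read 9.02, 9.13 and 8.99. No common order of repeats ran through these 5 subunits.

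Of the PHD finger subunits, which bind histone H3 tails, Ing3, Ing4, Ing5, Brd1, Brpf1 and Brpf3 were lowest in repeat 3. Ing3 of Tip60 read 8.39, 8.44 and 8.11, Ing4 of HBO1 6.973, 6.998 and 6.808, and Ing5 of HBO1 and MOZ 8.45, 8.61 and 8.29. The scaffold Brd1 read 8.14, 8.37 and 8.05, while its relatives Brpf1 and Brpf3 read 8.02, 8.01 and 7.94 and 7.22, 7.20 and 7.05. Ing1 and Ing2, described with the corepressors, were highest in repeat 3, so the low reading did not run through the ING family. Of the 11 complex subunits only Meaf6 and Taf6l had repeat 3 above the mean of the other arrays (18.2%), against 50.5% of all genes above background. No test was made on this count, since the subunits were grouped with earlier results known and the ranges were small.

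All 11 corepressor subunits were above background, and 9 of them, all but Rcor3 and Sap18, exceeded the higher cutoff on every array. Sin3a, the scaffold of the Sin3 deacetylase complex, read 9.10, 9.14 and 9.27, and its paralog Sin3b read 7.38, 7.45 and 7.16. Their extremes differed: repeat 3 was highest for Sin3a and lowest for Sin3b. Ing1 read 7.73, 7.78 and 7.79 and Ing2 read 6.59, 6.76 and 6.83. Both bind trimethylated H3K4 and recruit Sin3, and both were lowest in repeat 1.

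The Sin3-associated proteins Sap130, Sap30 and Sap30l averaged 8.55 ± 0.069, 8.09 ± 0.12 and 6.40 ± 0.080 (SD, n = 3), above both cutoffs on every array. Sap18, which also belongs to a splicing-dependent complex of the exon junction, read 6.18, 6.51 and 6.12 and exceeded the higher cutoff in repeat 2 only. A near-identical gene, Sap18b, makes its reading uncertain. Sap30bp, matched by its symbol and known as a transcription cofactor that binds Sap30, averaged 8.93 ± 0.11.

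The CoREST scaffolds, which join Hdac1 and Hdac2 to the demethylase Kdm1a, were read to different extents. Rcor1 read 7.91, 8.08 and 7.86. Rcor2 read 9.29, 9.55 and 9.47. Both exceeded the higher cutoff on every array, whereas Rcor3 read 5.24, 5.07 and 5.06, above background but below the 99th percentile of the receptor genes on all 3 arrays.

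Repeats differed little for these genes. Of the 51 members above background none had arrays more than 0.5 log2 units apart, against 4.47% of 12810 genes above background, and 14 of 51 (27.5%) spanned more than 0.25, against 33.4%. The median SD was 0.101 log2 units, equal to that of all genes above background (0.101). After Kat8, the widest ranges were those of Sap18 (0.39), Ing3 (0.34), Ep300 (0.33), Brd1 (0.32), Ing5 (0.31), Sirt1 (0.31) and Taf6l (0.30). The extremes fell on different arrays: repeat 2 was highest for Sap18, Ep300, Brd1, Ing5, Ing3, Sirt1 and Taf6l, and repeat 3 for Kat8.

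Variation beyond that of genes of similar level was tested over the 13591 genes that passed background on 1 array or more. Each gene's variance was set against the prior variance that limma fits for its level, and this is called limma's variance test here. The test called none of the 51 members, against 22 genes (0.162%) in all, with Benjamini-Hochberg adjustment. The smallest unadjusted p among members were 0.0852 for Kat8, 0.0897 for Ep300 and 0.0944 for Ing3 (adjusted p = 0.958, 0.958 and 0.967 in limma's variance test). No member had an unadjusted p under 0.05, against 5.75% of genes. With 3 arrays, a p that misses the threshold does not show that the repeats were equal.

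**Figure D3:**
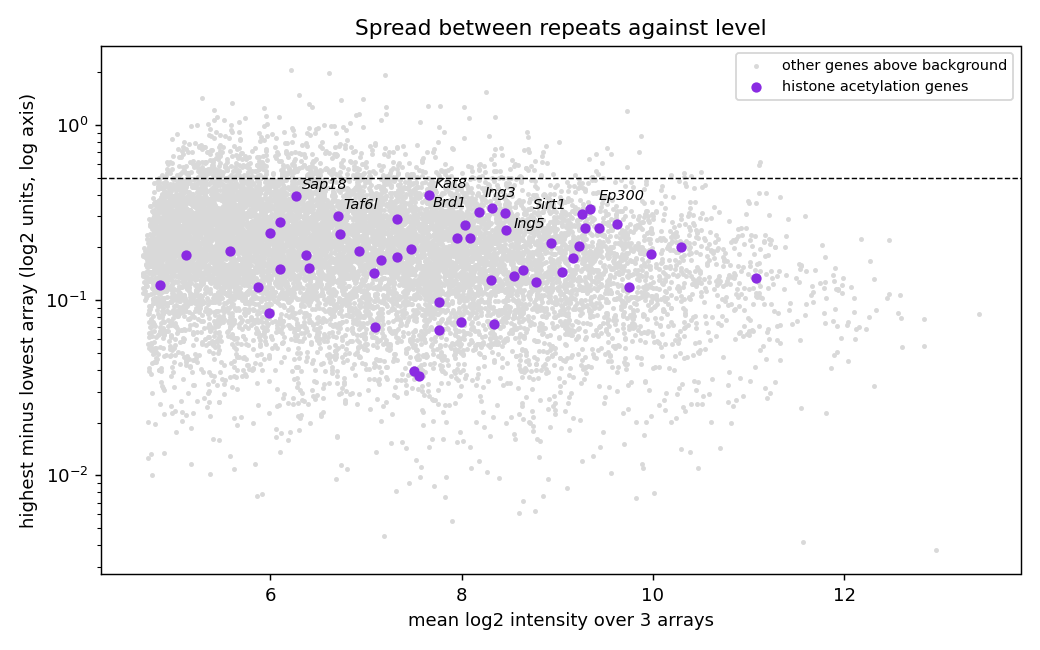
Highest minus lowest array in log2 units (vertical log axis) against mean log2 intensity for all genes above background on all 3 arrays (grey) and for 51 histone acetylation genes (purple). All purple points lie below the dashed line at 0.5, and the 8 with the widest range are named.

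Directions between repeats were small and mixed. Repeat 2 read above the mean of the other arrays in 34 of 51 members (66.7%), against 51.6% of genes above background, with a median difference of 0.048 log2 units in members and 0.0065 in all genes. It was the array farthest from the median, and higher, in 9 of 51 members, against 2622 of 12810 genes (20.5%). It was farthest and lower in 3 of 51, against 2304 of 12810 (18.0%). Both were smaller shares than in all genes. The 9 with repeat 2 farthest and higher were Ep300, Kat6b, Kat7, Brd1, Brd2, Brd8, Sap18, Sap30 and Rcor1. Repeat 1 read above the mean of the others in 18 of 51 members (35.3%), against 47.0% of genes. It was farthest and lower in 15 of 51, a larger share than the 16.3% of genes.

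Counts by role are given without a test of any difference between roles. Repeat 2 was above the mean of the other arrays in 2 of the 8 Hdac genes above background, Hdac2 and Hdac5, with a median difference of -0.11. Repeat 3 was above the mean of the others in 7 of 8, against 50.5% of genes, and the exception was Hdac5. Against the same 51.6%, repeat 2 was above the others in 5 of 7 sirtuins (71.4%) and 9 of 11 corepressor subunits (81.8%). For the acetyltransferases it was 6 of 9 (66.7%), or 6 of 10 (60.0%) with Kat14 counted. None of these genes was called by limma's variance test. Repeat 2 also had the highest fibroblast marker sum (2618, against 1695 and 1772 in repeats 1 and 3). The sums of ES cell, primitive endoderm and later germ cell markers were highest in repeat 2 as well. The part of any of these in the differences was not tested.

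**Figure D4:**
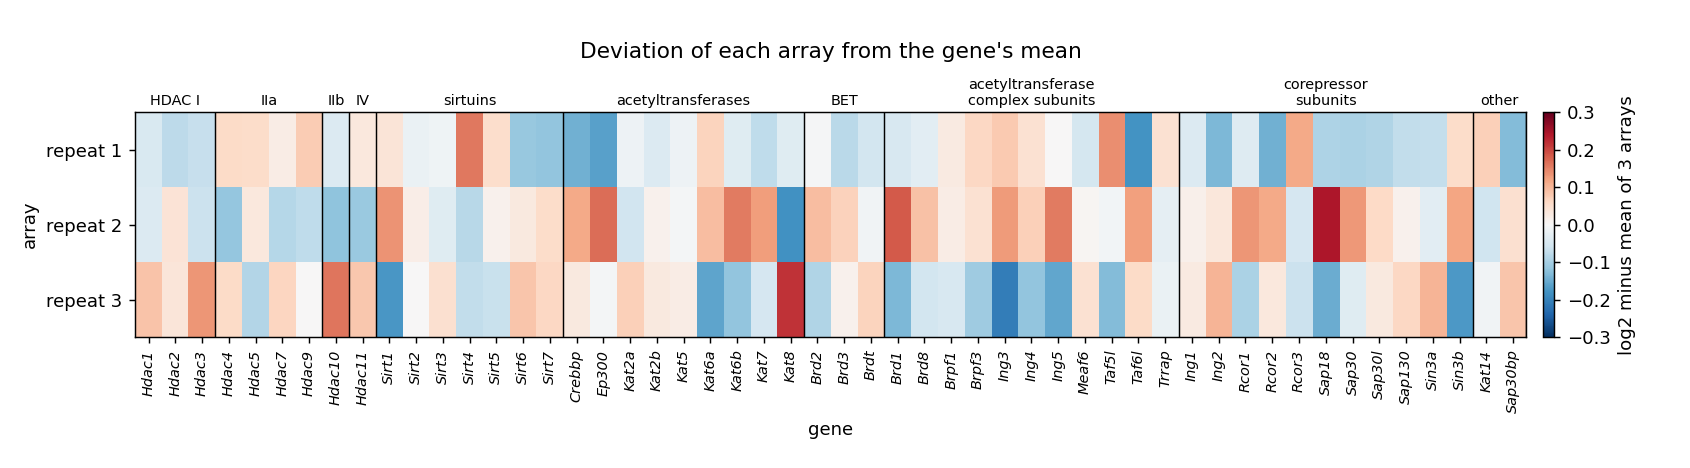
Deviation of each array (rows) from the mean of the 3 arrays for 52 histone acetylation genes (columns, grouped by role), as colour in log2 units. Hdac9 is drawn although it was below background on all 3 arrays. Kat8 is high in repeat 3 and Sap18 in repeat 2. Genes low in repeat 3 include Ing3, Ing4, Ing5, Brd1 and Brpf3, and also Sirt1, Sin3b and Kat6a of other roles.

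Genes that work with the members but do not carry such names were read in the same way. Of 65 such genes 60 were measured, and all 60 were above background on all 3 arrays, against 71.4% of genes. At the higher cutoff 58 of 60 were above on all 3 arrays, the exceptions being the SAGA subunit Atxn7 (6.01, 6.08 and 5.94) and the acetyl-lysine reader Mllt3 (6.28, 6.23 and 5.92). The acetyltransferase Hat1, which acetylates newly made H4, averaged 11.30 ± 0.030, and Acly, which makes acetyl-CoA from citrate, averaged 9.90 ± 0.0088 (SD, n = 3). Kdm1a, the CoREST demethylase, averaged 10.35 ± 0.079, and Chd4, the NuRD remodeller, 10.37 ± 0.073.

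The partners with the widest range were Epc2, Epc1, Mier3 and Arid4a. Epc2 and Epc1, Enhancer of polycomb scaffolds of the Tip60 complex, read 8.30, 8.51 and 8.08 and 8.27, 8.43 and 8.03. The Hdac1 and Hdac2 scaffold Mier3 read 7.83, 8.12 and 7.73, and the Sin3 subunit Arid4a read 6.93, 7.31 and 7.17. Like Ing3 and Ing5, Epc1, Epc2 and Mier3 were highest in repeat 2 and lowest in repeat 3. None of the 60 partners was called by limma's variance test, and Jade1 and Epc2 had an unadjusted p of 0.0392 and 0.0486 (adjusted p = 0.82 and 0.865).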

How the data were processed

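The authors deposited probe set intensities on a linear scale, 1 column for each of 3 arrays of R1 cells. The submitters' processing notes name GCOS 1.4. How background, normalization and probe set summary were handled is not given in the sources used here. Array medians were 47.8, 46.7 and 46.8, and no further normalization was applied. Values were placed on the log2 scale.

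Gene names came from the platform annotation, which can be outdated. The 26730 probe sets comprised 20764 with 1 symbol, 1419 with several and 4547 with none listed. Only the first kind was used. Where a gene had several (3 members), their log2 values were averaged, which left 19057 genes. Every value column had a sample.

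Each gene's variance between repeats was divided by limma's robust prior variance for its level (limma 3.58.1, R 4.3.3). The ratio was tested on F with 2 and 9.87 degrees of freedom, with Benjamini-Hochberg adjustment over 13591 genes at 0.05. The F test was computed outside limma, and the largest prior degrees of freedom of any gene were used for all genes. The test was tried on simulated data with shifts larger than the range of any member. Whether it finds differences as small as those of the members was not examined. Python 3.11.15, numpy 2.4.6, pandas 2.3.3 and matplotlib 3.10.9 were used. The number of arrays limits the precision. The labels call the repeats biological.

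Members, gene lists and tests were chosen with earlier results of these data known. Every member could be named; values per array are given for members not above background, the 8 with the widest range, enzymes and BET readers, and other members by role. Of the partners, those with a signal below a cutoff, the 4 with the widest range and a few chosen after their values were seen are named. Alternatives tried were other silent families, a 99th percentile cutoff, 2 of 3 arrays sufficing, quantile normalization, median centring, the highest probe set, other priors, no filter on dim genes, and leaving out each repeat. Promoters are RefSeq's, of GRCm38.p6.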

Additional observations from a re-analysis of the deposited data

Results flagged for a closer look

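A probe set that the annotation assigns to both Sap18b and Sap18 was left out of the report because it names no single gene. It averaged 9.91 ± 0.21 on the log2 scale (SD, n = 3) and read 9.75, 10.15 and 9.83 in repeats 1, 2 and 3, above both cutoffs on all 3 arrays. It was drawn out as signal in data that the report's counts do not use. Its signal cannot be assigned to either gene. Like the probe set of Sap18 alone (6.18, 6.51 and 6.12), it was highest in repeat 2, where each exceeded the mean of repeats 1 and 3 by 0.36.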

How the results depend on the processing

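The count of members above background on all 3 arrays was 51 and stayed at 51 when 2 of 3 arrays sufficed, after quantile normalization, after median centring, with the highest probe set of a gene and without each repeat in turn. With other silent families it was 42, and at the 99th percentile 49. For the partner genes it was 60 in each of these settings except with other silent families, where it was 58. The variance test called 0 members in all 10 settings run; the one unadjusted p under 0.05 was that of Ep300 without repeat 3 (0.0336, adjusted p = 0.929, limma's variance test). The smallest adjusted p of a member ranged from 0.887 to 0.998 over these settings. No member spanned more than 0.5 log2 units in any setting. Members with repeat 2 farthest and higher numbered 9, and 7 after quantile normalization. Quantile normalization moved the members' mean levels by -0.0070 to 0.0061 log2 units, and Hdac4 read 0.22 higher with its highest probe set. No paired analysis was possible because there is 1 group. The unknown steps before deposit and the few arrays limit what small differences can show.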
